A study of Zea mays with 8 samples.

Results

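Described here are 3 metabolic genes of the maize endosperm, chosen by gene ID from 39475 listed genes: the pyruvate orthophosphate dikinase (PPDK) genes pdk1 (GRMZM2G306345) and PPDK2 (GRMZM2G097457, also listed as CYPPDKZM2), and lkrsdh1 (GRMZM2G181362), which encodes the bifunctional enzyme of lysine breakdown. All 3 were among the 19058 genes that passed the filter on low counts. PPDK interconverts pyruvate and phosphoenolpyruvate. It is best known from C4 leaves, where a chloroplast form regenerates phosphoenolpyruvate, and pdk1 is known to give that form from one promoter and a cytosolic form from another. Cytosolic PPDK is abundant in cereal endosperm, where it links glycolysis, amino acid supply and the formation of starch and storage protein. The lkrsdh1 protein joins lysine-ketoglutarate reductase and saccharopine dehydrogenase, the opening steps of lysine degradation. Genes of both pathways are known targets of the bZIP transcription factor Opaque2, which also drives the 22-kDa alpha-zein storage proteins.

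Gene expression was measured by RNA sequencing in kernels of the inbred line B73, grown in a greenhouse. Thawed kernels were peeled mechanically into aleurone, the cell layer on the outside, and the starchy endosperm that it encloses. Kernels were taken 18 or 22 days after pollination (DAP). Each of the 4 groups had 2 replicates from replicate plants, which gave 8 libraries, and all groups shared the line and the growth conditions, with no treatment. Levels below are TPM (the share of all transcripts that a gene holds, corrected for its length), and folds between tissues are also given from counts scaled by TMM, the trimmed mean of M values, as CPM (scaled counts per library total). P-values measure the spread between these libraries.

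The libraries held between 2473005 and 11529168 counts. In every group the replicate 2 library was deeper and yet listed fewer genes above 0, down to 9335 in starchy endosperm at 22 DAP replicate 2 against 16720 in replicate 1. The tissue labels matched their markers: the summed level of 5 aleurone genes was 11297 to 40687 TPM in aleurone against 21.5 to 33.6 TPM in starchy endosperm. The summed level of 8 starchy endosperm genes was 206185 to 243638 TPM in starchy endosperm and 33062 to 45717 TPM in the aleurone peels. The marker vp1, a regulator of seed maturation, was at 0 in all starchy endosperm libraries. Genes of green tissue summed to 1.87 to 20.1 TPM, those of the embryo to at most 4.85 TPM and those of the basal transfer layer to at most 1.91 TPM. The C4 phosphoenolpyruvate carboxylase gene pep1 averaged at most 0.065 TPM in any group. A set of 25 zein genes took 55.7% to 62.2% of the counts in starchy endosperm and 7.87% to 11.7% in aleurone. Scalings with and without the zeins are therefore both given below.

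PPDK2 was the most abundant of the 3 genes in every library. Its level was 5684 and 5411 TPM in aleurone at 18 DAP (replicates 1 and 2), 5048 and 4614 TPM in aleurone at 22 DAP, while starchy endosperm had 1257 and 1428 TPM at 18 DAP and 1120 and 1144 TPM at 22 DAP. Every aleurone library thus lay above every starchy endosperm library, and the replicates of a group lay close together. By TPM it ranked 16th to 28th of all genes in aleurone and 31st to 34th in starchy endosperm. Group means were 5548 ± 193 and 4831 ± 306 TPM in aleurone (SD, n = 2) and 1343 ± 121 and 1132 ± 16.8 TPM in starchy endosperm, at 18 and 22 DAP.

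The pdk1 level was 1977 and 2032 TPM in aleurone at 18 DAP, 1601 and 1700 TPM in aleurone at 22 DAP, while starchy endosperm had 183 and 252 TPM at 18 DAP and 246 and 181 TPM at 22 DAP. The tissues were far apart in TPM and the ages of the starchy endosperm overlapped. Group means were 2004 ± 39.2 and 1650 ± 70.2 TPM in aleurone against 218 ± 48.7 and 214 ± 45.3 TPM in starchy endosperm (SD, n = 2). The gene ranked 42nd to 51st by TPM in aleurone against 90th to 153rd in starchy endosperm.

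The lkrsdh1 level spanned the widest range of the 3 genes. It was 824 and 605 TPM in aleurone at 18 DAP, 358 and 238 TPM in aleurone at 22 DAP, while starchy endosperm had 59.2 and 38.6 TPM at 18 DAP and 16.0 and 12.3 TPM at 22 DAP. The 4 groups did not overlap. They stepped down from aleurone at 18 DAP to starchy endosperm at 22 DAP, and replicate 1 lay above replicate 2 in each. Group means were 715 ± 155 and 298 ± 85.2 TPM in aleurone against 48.9 ± 14.6 and 14.1 ± 2.64 TPM in starchy endosperm (SD, n = 2). Its rank by TPM ran from 88th in the highest library to 2998th in the lowest, where it had 118 counts.

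**Figure D1:**
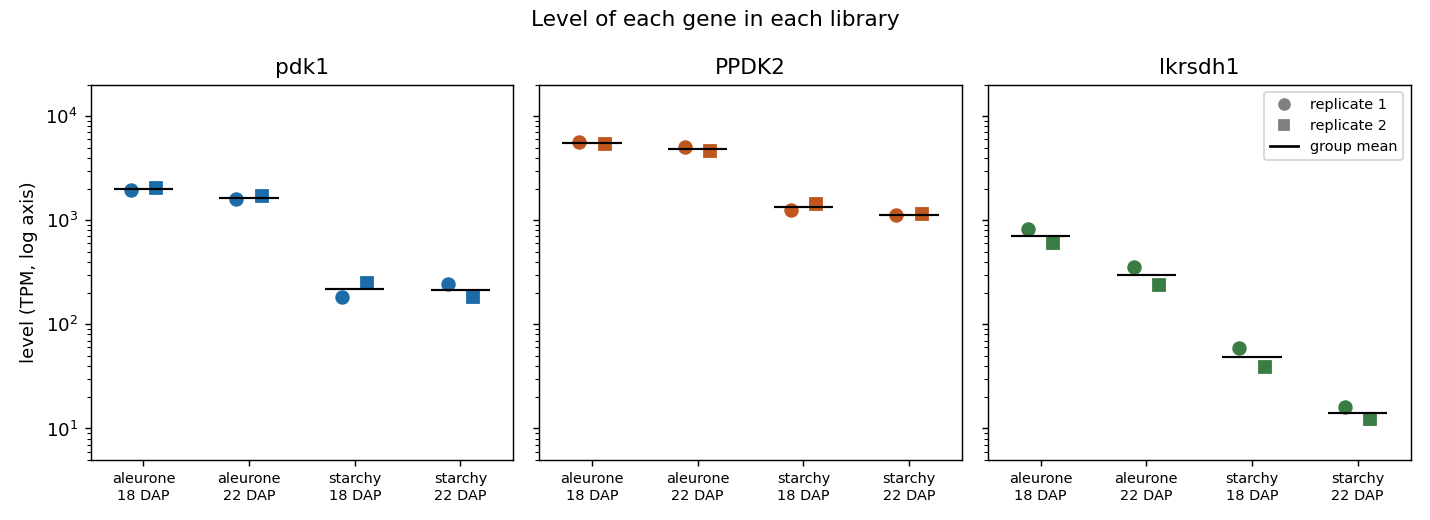
Level of pdk1, PPDK2 and lkrsdh1 in each of the 8 libraries, in TPM on a log axis, with circles for replicate 1, squares for replicate 2 and lines for group means (n = 2). All 3 genes were higher in each aleurone library than in any starchy endosperm library, and the 4 groups of lkrsdh1, with means of 715, 298, 48.9 and 14.1 TPM, stood apart from each other.

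The question of the tissue comparison was whether transcripts for these enzymes lie in the outer layer or in the storage tissue that accumulates starch and zein. In TPM the aleurone level of pdk1 was 9.21 times that of starchy endosperm at 18 DAP and 7.73 times at 22 DAP. For PPDK2 the corresponding folds were 4.13 and 4.27, and for lkrsdh1 they were 14.6 and 21.1. Yet 62.9% of all tested genes had every aleurone TPM above every starchy endosperm TPM, so the non-overlap itself, shared by all 3 genes, did not set them apart. In TPM recomputed without the zeins the folds were 4.24 and 3.55 for pdk1, 1.91 and 1.95 for PPDK2, and 6.81 and 9.66 for lkrsdh1. In bulk tissue, fewer cells of a type and less RNA per cell cannot be told apart.

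Relative to TMM scaling, lkrsdh1 alone passed the test. With the ages pooled, 5.95% of tested genes were called higher in aleurone, and lkrsdh1 was among them with a log2 fold change of 2.49 (SE 0.36, edgeR quasi-likelihood test, adjusted p = 0.00443). It was higher in 4 of 4 aleurone libraries. At 22 DAP, where 1.19% of genes were called higher, its log2 fold change was 3.15 (SE 0.52, edgeR adjusted p = 0.0234). Without starchy endosperm at 22 DAP replicate 2, the library with the fewest listed genes, that adjusted p was 0.0886 in edgeR, with a log2 fold change of 2.79. At 18 DAP, where 1.21% of genes were called higher, the log2 fold change was 1.83 (SE 0.49) and the edgeR adjusted p was 0.111. Without replicate 1 or replicate 2 of starchy endosperm at 22 DAP, the 18 DAP log2 fold change was nearly the same, at 1.86 and 1.84.

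Behind these tests the TMM-scaled level of lkrsdh1 was 677 and 547 CPM in aleurone at 18 DAP and 386 and 277 CPM at 22 DAP. In starchy endosperm it was 238 and 107 CPM at 18 DAP and 48.2 and 27.1 CPM at 22 DAP. Every aleurone library again lay above every starchy endosperm library, as for 23.4% of tested genes on this scale. The fold between group means was 3.55 at 18 DAP and 8.81 at 22 DAP.

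For pdk1 the TMM-scaled level was 711 and 1032 CPM in aleurone at 18 DAP, 625 and 958 CPM in aleurone at 22 DAP, 334 and 478 CPM in starchy endosperm at 18 DAP, and 436 and 389 CPM in starchy endosperm at 22 DAP. The tissues did not overlap on this scale either, and the folds between group means were 2.15 and 1.92. The log2 fold change was 1.10 (SE 0.39, edgeR adjusted p = 0.222) at 18 DAP and 0.94 (SE 0.38, edgeR adjusted p = 0.284) at 22 DAP. With the ages pooled it was 1.02 (SE 0.27, edgeR adjusted p = 0.0517), on the far side of the threshold of 0.05. Leaving out starchy endosperm at 22 DAP replicate 1 gave 1.09 with edgeR adjusted p = 0.0277, and leaving out other single libraries gave values up to 0.255. The median of all tested genes in this comparison was 0.77, so pdk1 lay only slightly above a typical gene.

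PPDK2 had nearly the same TMM-scaled level in both tissues. It was 5110 and 7094 CPM in aleurone at 18 DAP, 4811 and 6998 CPM in aleurone at 22 DAP, 5472 and 6961 CPM in starchy endosperm at 18 DAP, and 5077 and 4730 CPM in starchy endosperm at 22 DAP. The tissues overlapped at both ages, and with the ages pooled the log2 fold change was 0.12 (SE 0.25, edgeR adjusted p = 0.807). It was -0.03 (SE 0.35) at 18 DAP and 0.27 (SE 0.35) at 22 DAP, so the direction at 18 DAP is not defined at this spread. Its pooled value lay below the median of 0.77 of all tested genes.

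How large the tissue difference is, and whether the dikinase genes pass, therefore depended on what the counts were scaled to. The median log2 fold change of all tested genes, ages pooled, was 0.77 with TMM, 1.29 with library sizes that leave out the zeins and 2.40 with whole library sizes. Under the same 3 scalings PPDK2 was at 0.12, 0.56 and 1.71, and passed in edgeR only with whole library sizes (adjusted p = 0.000831), where 36.0% of genes were called higher. The pdk1 values were 1.02, 1.46 and 2.61, and the last 2 passed (edgeR adjusted p = 0.00645 and 0.00036). Without the zeins 10.0% of genes were called higher. The lkrsdh1 values were 2.49, 3.0 and 4.13. A scaling shifts all genes by nearly the same amount, so the distance of a gene from the median, 1.72 for lkrsdh1, 0.25 for pdk1 and -0.65 for PPDK2 with TMM, is nearly fixed across these scalings.

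**Figure D2:**
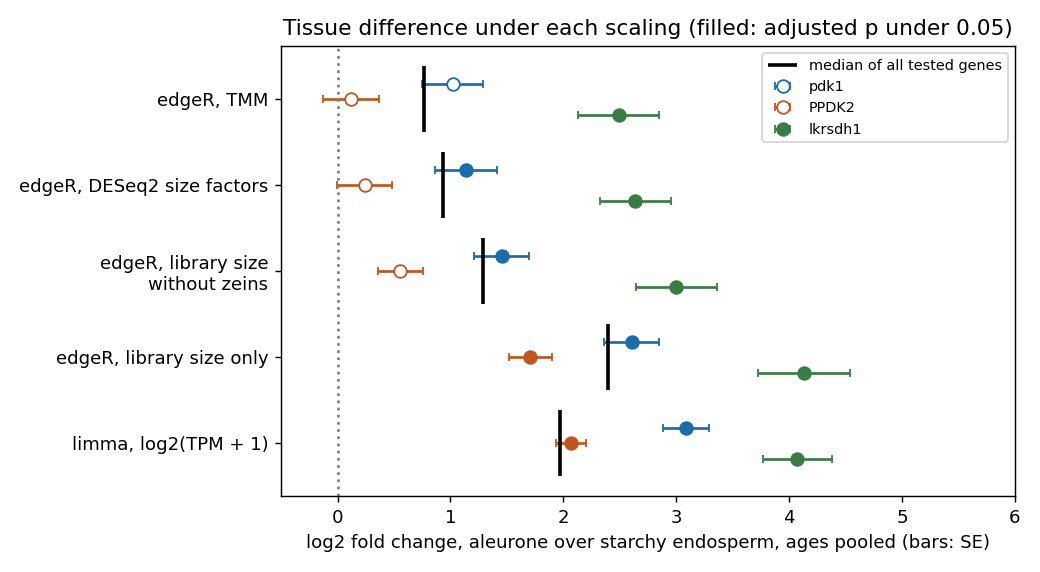
Log2 fold change of aleurone over starchy endosperm, ages pooled, for pdk1, PPDK2 and lkrsdh1 (points, bars are SE) under 5 scalings, beside the median of all 19058 tested genes (black lines). Filled points have an adjusted p under 0.05, and the bottom line is limma on log2(TPM + 1), where 75.6% of genes were called higher. The whole pattern shifted with the scaling, from a median of 0.77 with TMM to 2.40 with library size. A change of edgeR scaling moves the genes and their median together, and in the limma fit PPDK2 lay at 2.07 beside a median of 1.97.

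A ratio of the dikinase genes within a library does not depend on the scaling. PPDK2 stood at 2.66 to 3.15 times the pdk1 TPM in the 4 aleurone libraries and at 4.56 to 6.86 times in the 4 starchy endosperm libraries. As a share, pdk1 made up 25.8% and 27.3% of the summed dikinase TPM in aleurone at 18 DAP and 24.1% and 26.9% at 22 DAP. In starchy endosperm it made up 12.7% and 15% at 18 DAP and 18.0% and 13.7% at 22 DAP. All aleurone shares lay above all starchy endosperm shares. How many other gene pairs separate the tissues in this way was not measured, so the separation is not shown to be particular to this pair. The mean log2 ratio of pdk1 to PPDK2 was -1.51 ± 0.11 in aleurone and -2.53 ± 0.25 in starchy endosperm (SD, n = 4 each), a difference of 1.02. An exact two-sided permutation test over the 8 libraries gave p = 0.0286, the smallest value that its 70 arrangements allow. Between the ages the log2 ratio differed by 0.07 (exact permutation p = 0.886). The ratio of pdk1 to PPDK2 read counts also did not overlap between tissues, at 0.130 to 0.145 in aleurone and 0.0610 to 0.0860 in starchy endosperm. It was lower than the TPM ratio, which divides by length. The listed gene lengths in aleurone were 1024 to 1086 bases for pdk1 and 2192 to 2496 bases for PPDK2. In starchy endosperm they were 966 to 1324 bases for pdk1 and 2096 to 2393 bases for PPDK2. The step from counts to TPM does not follow from these listed lengths alone. With the pair summed, dikinase transcripts stood at 6314 to 7661 TPM in aleurone against 1326 to 1680 TPM in starchy endosperm.

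**Figure D3:**
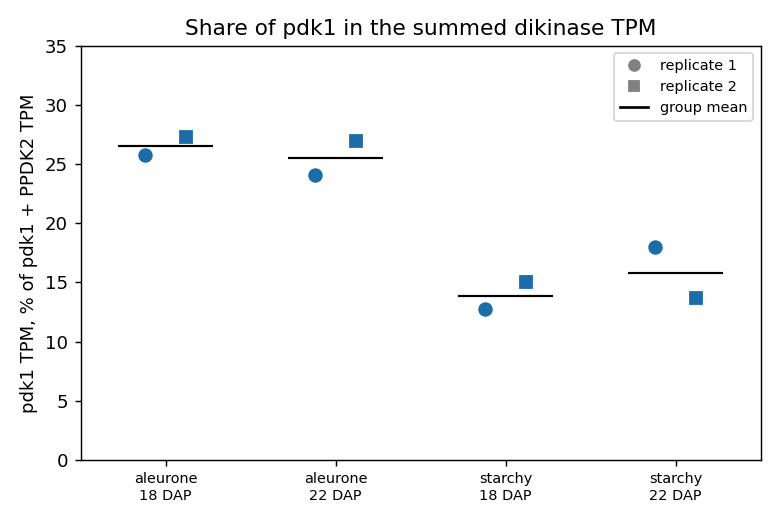
TPM of pdk1 as a percent of the summed TPM of pdk1 and PPDK2 in each library, with circles for replicate 1, squares for replicate 2 and lines for group means. The 4 aleurone libraries lay between 24.1% and 27.3% and the 4 starchy endosperm libraries between 12.7% and 18.0%.

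The dikinase genes are close relatives, so reads can fit both. The deposited posterior SD of the read count, RSEM's own measure of that uncertainty, was the same number for both genes in every library, 4.37 to 17.1 reads. That was 0.158% to 0.801% of the pdk1 count and at most 0.0649% of the PPDK2 count. This SD does not cover errors in the gene models, and the part of shared reads in the ratio was not tested.

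Markers of each tissue were also read in the other tissue. The starchy endosperm markers had 12% to 62.0% of their starchy endosperm TPM in the aleurone libraries, with medians of 15.9% at 18 DAP and 18.5% at 22 DAP (8 genes). The highest value at each age was that of ae1, a starch branching enzyme gene, and whether the aleurone expresses any of these markers itself was not tested. The ae1 percent of the starchy endosperm TPM would come to 4.50% and 8.02% of the aleurone TPM of pdk1, 10.0% and 14.5% of that of PPDK2, and 2.84% and 2.94% of that of lkrsdh1, at 18 and 22 DAP. In the other direction, the 5 aleurone markers had at most 0.297% of their aleurone TPM in starchy endosperm. The starchy endosperm TPM was 10.9% and 12.9% of the aleurone TPM for pdk1, 24.2% and 23.4% for PPDK2, and 6.84% and 4.74% for lkrsdh1. The part of carry-over in any of these values was not tested.

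Between the ages, lkrsdh1 had the clearest step of the 3 genes, without passing the adjusted test. Its mean at 22 DAP was 0.417 of that at 18 DAP in aleurone and 0.289 in starchy endosperm by TPM, and 0.542 and 0.219 by TMM-scaled counts. Both 22 DAP libraries lay below both 18 DAP libraries in each tissue for lkrsdh1 and for PPDK2, as for 4.33% of tested genes in TPM. For lkrsdh1 the log2 fold change of 22 over 18 DAP was -0.88 in aleurone (SE 0.48, edgeR unadjusted p = 0.0997) and -2.20 in starchy endosperm (SE 0.51, edgeR unadjusted p = 0.00192, adjusted p = 1.00). In starchy endosperm the library with the fewest listed genes, 22 DAP replicate 2, was also the lowest for lkrsdh1, and without it the value was -1.84 (edgeR adjusted p = 1.00). Without 22 DAP replicate 1 it was -2.68 with edgeR adjusted p = 0.0222, in a fit where 3166 genes were called, and without 18 DAP replicate 1 it was -1.50 (edgeR adjusted p = 0.72). The edgeR test called 0 genes (0.0%) between ages in aleurone and 0 (0.0%) in starchy endosperm, with 196 and 655 genes at an unadjusted p under 0.05, and DESeq2 called 3 and 32.

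The dikinase genes moved little with age. The pdk1 log2 fold change was -0.14 in aleurone and 0.02 in starchy endosperm, and that of PPDK2 was -0.05 and -0.34, each less than its SE of 0.35 to 0.38. The change of the tissue difference from 18 to 22 DAP was 1.32 for lkrsdh1 (SE 0.68, edgeR unadjusted p = 0.0866), or 0.62 without starchy endosperm at 18 DAP replicate 1, -0.16 for pdk1 and 0.29 for PPDK2. The edgeR test called 0 genes (0.0%) for this change, with 390 at an unadjusted p under 0.05, and DESeq2 called 7. The lkrsdh1 gap of 8.81-fold at 22 DAP and 3.55-fold at 18 DAP was therefore not shown to differ.

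The deposited files also split each gene into annotated transcripts. The transcript T01 of pdk1, 837 bases long, held 83.5% to 87.2% of the gene's TPM in aleurone against 67.1% to 91.3% in starchy endosperm. The longer T03 of 2320 bases held 11.9% to 15.1% and 8.53% to 32.9%. The mean T01 share differed by 3.37 percentage points between tissues (exact permutation p = 0.743), within the spread of the starchy endosperm libraries. By read counts, not divided by length, T01 held 59.0% to 66.5% in aleurone and 37.1% to 75.2% in starchy endosperm. For PPDK2, T03 of 1602 bases and T02 of 3071 bases shared nearly all of the level, and T01 of 3300 bases held at most 4.14%. By read counts T02 held 56.8% to 70.7% in aleurone and 49.3% to 65.0% in starchy endosperm. The T03 share of the PPDK2 TPM was 50.7% ± 10.3 in aleurone and 55.9% ± 8.91 in starchy endosperm (SD, n = 4 each, exact permutation p = 0.486).

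That PPDK2 share did not overlap between the replicate numbers. It was 59.0% to 66.5% in the 4 replicate 1 libraries and 39.7% to 50.7% in the 4 replicate 2 libraries, which were also the deeper ones with fewer listed genes. Within replicate 1 it was 59.04% and 59.96% in aleurone and 59.71% and 66.5% in starchy endosperm, and within replicate 2 it was 43.96% and 39.7% against 46.77% and 50.7%, at 18 and 22 DAP. The labels do not say what the number stands for, and the part of depth in this share was not tested.

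In lkrsdh1 the shortest transcript, T04 of 1101 bases, led by TPM in every library, ahead of 4 transcripts of 3571 to 3731 bases. It did not lead everywhere by read counts, which are not divided by length. In aleurone at 22 DAP replicate 1 T04 held 18.8% of the counts against 43.3% for T01. In replicate 2 of that group it held 32.5% against 42.5% for T03. T04 held 48.1% to 74.7% of the gene's TPM in aleurone against 63.0% to 89.6% in starchy endosperm. The means were 62.9% ± 11 and 81.0% ± 12.2 (SD, n = 4 each), a difference of 18.1 points in the direction of starchy endosperm that missed the threshold (exact permutation p = 0.114). T01 of lkrsdh1, at 0.12% to 27.4% in aleurone, was at 0% of the TPM in all 4 starchy endosperm libraries, whose lkrsdh1 counts ran only from 64 to 673. The posterior SD of the T01 count was 247 on 984 reads in aleurone at 22 DAP replicate 1. It was 209 on 6.86 reads in replicate 2 of that group, and 53.6 on 0.02 reads in starchy endosperm at 18 DAP replicate 1. An absence of T01 from starchy endosperm is thus not shown.

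**Figure D4:**
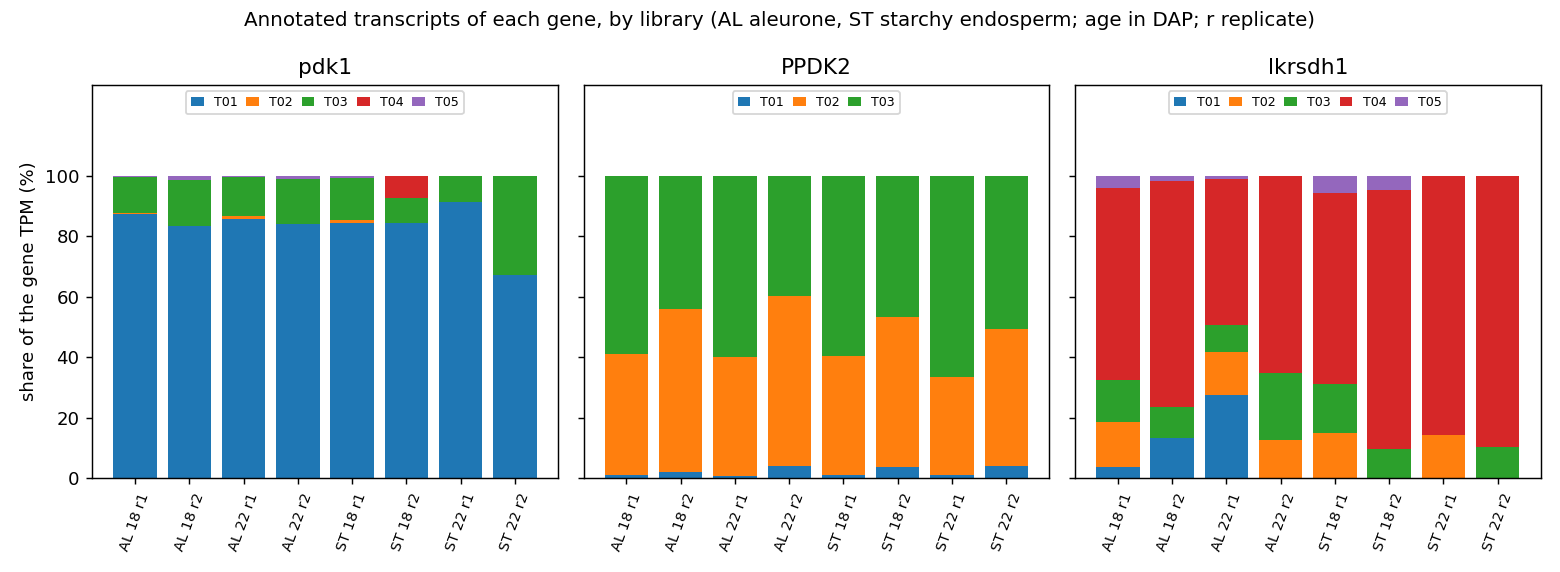
Share of each gene's TPM held by each annotated transcript, stacked by library, with aleurone (AL) left and starchy endosperm (ST) right. The T03 share of PPDK2 alternated with the replicate number, 59.0% to 66.5% in replicate 1 and 39.7% to 50.7% in replicate 2, and T04 of lkrsdh1 held 48.1% to 89.6%.

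Opaque2 is the known activator of these genes, and its own transcript was compared between the tissues in the same way. The o2 level was 77.1 and 90.4 TPM in aleurone at 18 DAP, 66.6 and 107 TPM in aleurone at 22 DAP, while starchy endosperm had 149 and 255 TPM at 18 DAP and 69.98 and 115 TPM at 22 DAP. In TPM the tissues were apart at 18 DAP and overlapped at 22 DAP. Relative to TMM scaling o2 was lower in aleurone, with a log2 fold change of -2.65 with the ages pooled (SE 0.35, edgeR adjusted p = 0.00285) and -3.36 at 18 DAP (edgeR adjusted p = 0.0133). At 22 DAP it was -1.93 (edgeR adjusted p = 0.101), and with whole library sizes the pooled value was -1.08, in the same direction.

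Of the 5 tested regulators, 2 were lower in aleurone with the ages pooled and 3 did not pass, where 2.94% of all tested genes were called lower. The other called one was GRMZM2G146283, 1 of 2 IDs listed as PBF, the prolamin-box binding factor that partners Opaque2 on zein promoters, at -2.19 (edgeR adjusted p = 0.00884). The PBF ID GRMZM2G146267 had -0.77 (edgeR adjusted p = 0.34), with 23.5 and 18.4 TPM in aleurone against 8.82 and 7.62 TPM in starchy endosperm at 18 and 22 DAP. The bZIP genes ohp1 and ohp2 encode proteins that pair with Opaque2. Their log2 fold changes were -0.23 (edgeR adjusted p = 0.872) and 0.97 (edgeR adjusted p = 0.492), at 18.0 and 21.1 TPM in aleurone against 5.08 and 1.69 TPM in starchy endosperm at 18 DAP. With whole library sizes ohp1 and GRMZM2G146267 turned to 1.38 and 0.89.

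Most of the other Opaque2 targets on the list used here were lower in aleurone relative to TMM scaling, as o2 was. Of 14 listed, 13 were tested, and with the ages pooled 10 were lower in aleurone (2.94% of all tested genes were), 0 were higher and 3 did not pass, with a median log2 fold change of -3.28 beside 0.77 over all tested genes. All tested ones but rip1 are zeins, storage proteins of the starchy endosperm, so a lower level in aleurone could be foreseen for them. Most are alpha-zeins, which are near-identical copies whose reads can be shared among them. They are therefore not separate cases, and the count does not show how Opaque2 targets in general behave. The gene fl2 is also a starchy endosperm marker used above. The alpha-zein gene fl2 had 6929, 6974, 6763 and 7316 TPM in the 4 aleurone libraries and 36662, 43279, 33220 and 39979 TPM in the 4 starchy endosperm libraries. Its log2 fold change was -4.45 (SE 0.30, edgeR adjusted p = 0.000138). Those of z1C1_8, z1C1_4 and z1C1_7 were -4.10, -4.21 and -3.85 (edgeR adjusted p = 0.000138, 0.000145 and 0.000146). Named after its values were seen, rip1, which encodes the b-32 ribosome-inactivating protein, had -1.91 (edgeR adjusted p = 0.0341), and -0.37 with whole library sizes.

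At each age 8 of these targets were lower in aleurone, where 0.866% of tested genes were called lower at 18 DAP and 0.504% at 22 DAP. At 22 DAP the alpha-zein z1C1_12 was the 1 target called higher in aleurone, at 1.87 (edgeR adjusted p = 0.0452), with 1629 ± 89.2 TPM in aleurone against 118 ± 3.2 TPM in starchy endosperm (SD, n = 2). It too was named after its values were seen. The zeins in these lists are part of what scales the tissue comparison.

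A list of other genes of lysine breakdown, of the aspartate family, from which lysine is made, and of glutamate metabolism mostly did not pass the test. Of 8 tested, 1 was higher in aleurone with the ages pooled, where 5.95% of all tested genes were, and 7 did not pass, with a median log2 fold change of 1.29 beside 0.77 over all tested genes. The called one was fgs1, listed as a ferredoxin-dependent glutamate synthase, at 1.65 (SE 0.43, edgeR adjusted p = 0.048), with 19.9 and 20.5 TPM in aleurone against 1.24 and 2.11 TPM in starchy endosperm at 18 and 22 DAP. ALDH7, of the aldehyde dehydrogenase family that includes the next enzyme of the saccharopine route, had 504, 291, 575 and 293 TPM in the 4 aleurone libraries. In the 4 starchy endosperm libraries it had 63.9, 33.9, 45.5 and 46.2 TPM, so the tissues did not overlap in TPM. Its log2 fold change of 1.06 (SE 0.30) missed the threshold (edgeR adjusted p = 0.0614). The glutamate dehydrogenase gene gdh1 had 532 counts in aleurone and 5 in starchy endosperm, a ratio of TMM-scaled counts of 46.1 (exact 95% interval 19.6 to 143, counting error only, edgeR adjusted p = 0.0858). Of 3 IDs listed as AKHSDH1, an aspartate kinase with homoserine dehydrogenase, GRMZM2G437977 had 0.85 (edgeR adjusted p = 0.22). Dihydrodipicolinate synthase and other genes planned for this list could not be matched to a sure ID and were left out. The list is therefore not a survey of lysine synthesis.

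Around the dikinase step, 8 of 9 listed pyruvate and phosphoenolpyruvate genes were tested. With the ages pooled 2 were higher in aleurone, where 5.95% of all tested genes were, and 6 did not pass, with a median of 1.44 beside 0.77. The malic enzyme gene me4, which makes pyruvate from malate, had 45.5, 41.4, 30.2 and 18.1 TPM in the 4 aleurone libraries and 1 count in all 4 starchy endosperm libraries together. Its ratio of TMM-scaled counts was 517 (exact 95% interval 92.6 to 20432, counting error only, edgeR adjusted p = 0.00478), and it was the 1 gene of this list called higher at 18 DAP and at 22 DAP, where 1.21% and 1.19% of all tested genes were. The phosphoenolpyruvate carboxylase gene pep4 had 40.2, 34.4, 37.3 and 32.5 TPM in aleurone against 2.48, 6.46, 1.69 and 1.41 TPM in starchy endosperm. Its log2 fold change was 1.75 (SE 0.44, edgeR adjusted p = 0.0411), while that of pep7, of the same family, was 1.61 (edgeR adjusted p = 0.0756). Pyruvate kinases, planned for this list, could not be matched to a sure ID and were left out.

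The gene pdrp1 encodes the regulatory protein that switches PPDK on and off by phosphorylation. It had 2.17, 2.46, 3.94 and 7.23 TPM in the 4 aleurone libraries and 0 counts in all starchy endosperm libraries. Its TMM-scaled level was at least 16.9-fold higher in aleurone, against a floor of 3 counts over the starchy endosperm libraries (counting error only), and it did not pass the test (edgeR adjusted p = 0.0803). Starchy endosperm, with 1326 to 1680 TPM of dikinase transcripts, thus had no count of this regulator.

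**Figure D5:**
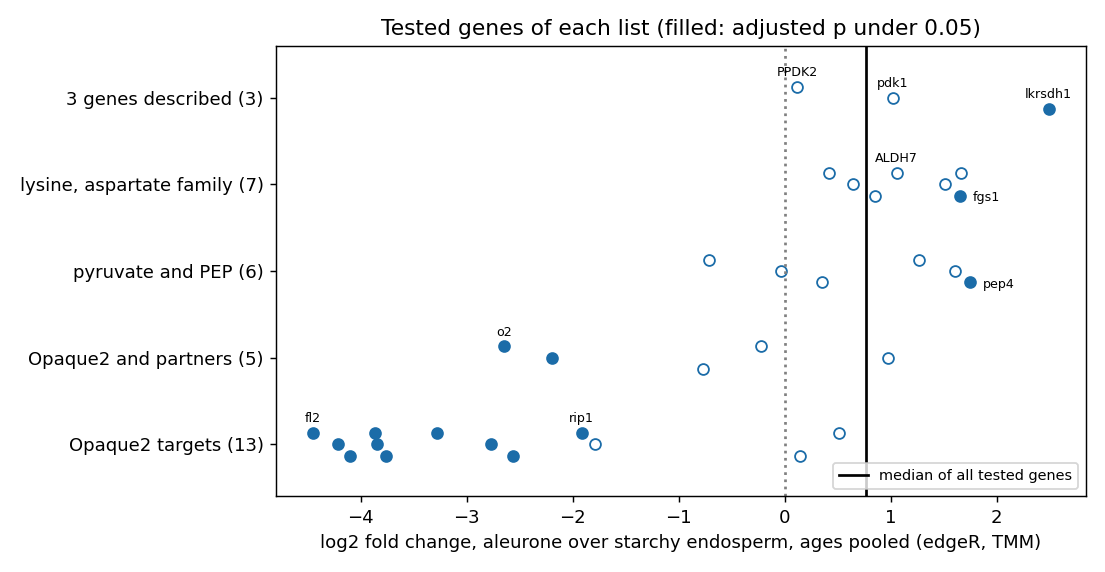
Log2 fold change of aleurone over starchy endosperm, ages pooled (edgeR, TMM), for the 3 genes described and the tested genes of 4 lists, with filled points for adjusted p under 0.05, a solid line at the median of all tested genes (0.77) and a dotted line at 0. The genes me4, pdrp1 and gdh1, with 0 to 5 counts in starchy endosperm, are not drawn and would lie to the right of lkrsdh1. Together with o2, 10 of 13 Opaque2 targets, most of them alpha-zeins, lay below 0 and passed, while lkrsdh1 at 2.49 lay to the right of every point drawn.

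The 3 genes did not share 1 pattern over the 8 libraries. Likeness was measured as the root mean square difference of log2(TPM + 1), centred on each gene's mean, over 8 libraries and 8512 genes whose mean reached 20 TPM in a group. Nearest to pdk1 were cat1 (catalase, GRMZM2G088212) at 0.21, GRMZM2G148769, rel2 (GRMZM2G042992), GRMZM2G029135 and trxh1 (an h-type thioredoxin, GRMZM2G424053) at 0.23, and PPDK2 was only the 618th nearest. Nearest to PPDK2 were GRMZM2G002825 at 0.12, pma1 (GRMZM2G104325), GRMZM2G100620, GRMZM2G179523 and GRMZM2G068586 at 0.15, with pdk1 in place 1627. Nearest to lkrsdh1 were GRMZM2G422644 at 0.22, ypt1 (GRMZM2G086971), GRMZM2G162663, abp4 (GRMZM2G064371) and brick3 (GRMZM5G886363) at 0.36, with pdk1 in place 1428 and PPDK2 in place 3606. Chosen for this likeness, ypt1 was at 55.9 and 16.8 TPM in aleurone against 1.91 and 0.32 TPM in starchy endosperm, at 18 and 22 DAP. Seen from pdk1 and from PPDK2, lkrsdh1 was in places 4051 and 6496. The o2 gene was farther still from all 3, in places 8073, 7283 and 8189 of 8512.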

How the data were processed

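RNA was sequenced from 8 libraries of B73 kernels, 2 per tissue and age. Per the submitters' processing notes, FastQC, Bowtie2 2.2.3, SAMtools and RSEM 1.2.15 were run on B73 RefGen_v3. Which annotation and strand setting were used is not given in the sources used here. The authors deposited RSEM expected counts and TPM per gene and transcript, each transcript's percent of its gene's TPM, and posterior SDs of counts and gene lengths in bases, per the file headers. A deposited table of mean TPM was not used.

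Expected counts were rounded and tested with edgeR 4.0.16 (R 4.3.3; filterByExpr, TMM, quasi-likelihood fit of 4 group means over all 8 libraries). The threshold was an adjusted p of 0.05 (Benjamini-Hochberg over all 19058 tested genes), and SEs came from the F statistic. The script was tested on simulated data. Alternatives were other scalings, no filter, DESeq2 1.42.0, limma 3.58.1 on log2(TPM + 1) and log2(TPM + 0.1), a replicate term and each library left out. The scalings by library size, with and without zeins, were added after seeing the data. Ratios and transcript shares were compared by exact two-sided permutation tests, 5 in all, without adjustment. Library totals of 2473005 to 11529168 counts set the precision. Bounds and intervals (Clopper-Pearson) cover counting error only, since reads are not independent molecules.

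The 3 genes and the gene lists were chosen with earlier results of these data known. Besides the 3 genes and all regulators, up to 4 genes per list were named by adjusted p in the pooled tissue comparison, with at least 5 TPM in a group, and the 5 genes of the most like pattern per gene. Of 39475 IDs, 18908 were found in the RefSeq gene table (assembly Zm-B73-REFERENCE-NAM-5.0), which gave the gene names, among them all 3 genes. No coordinates were taken from it.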

Additional observations from a re-analysis of the deposited data

How the results depend on the processing

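The pooled tissue difference of lkrsdh1 kept its direction and its call under every alternative, with log2 fold changes of 2.26 to 2.87 when single libraries were left out. At 22 DAP it lost its call without 1 library (2.75 to 3.65 over single libraries left out). At 18 DAP it passed with the DESeq2 Wald test (2.06), DESeq2 size factors (2.06), no filter (1.86), library size only (3.51), library size without zeins (2.42) and limma on log2(TPM + 0.1) and log2(TPM + 1) (3.88 and 3.86), and lay at 1.37 to 2.56 over single libraries left out. In starchy endosperm its age difference passed with no filter (-2.20) and lay at -2.68 to -1.50 over single libraries left out. For pdk1 the pooled difference passed with the DESeq2 Wald test (1.14), DESeq2 size factors (1.14), no filter (1.05), library size only (2.61), library size without zeins (1.46) and limma (3.09 and 3.09), and lay at 0.69 to 1.17 over single libraries left out. At 18 DAP pdk1 passed with library size only (2.75), library size without zeins (1.63) and limma (3.22 and 3.22), and at 22 DAP with library size only (2.46) and limma (2.97 and 2.96). PPDK2 at 18 DAP turned positive with the DESeq2 Wald test (0.16), DESeq2 size factors (0.16), library size only (1.63), library size without zeins (0.50), limma (2.05 and 2.05) and no filter (0.0056), and lay at -0.27 to 0.16 over single libraries left out. At 18 DAP PPDK2 passed with library size only and with both limma fits. It also passed with library size only at 22 DAP and pooled (1.79 and 1.71) and with limma (2.09 and 2.09 at 22 DAP, 2.07 and 2.07 pooled), and over single libraries left out it lay at -0.24 to 0.35 and -0.19 to 0.22. Age differences of the dikinase genes, which did not pass, changed sign over single libraries left out: pdk1 from -0.49 to 0.16 in aleurone and -0.20 to 0.30 in starchy endosperm, PPDK2 from -0.36 to 0.22 in aleurone. In starchy endosperm pdk1 was at -0.026 with both limma fits. The change of the tissue difference with age ran from -0.59 to 0.13 for pdk1, -0.10 to 0.55 for PPDK2 and 0.62 to 1.79 for lkrsdh1. The log2 ratio of pdk1 to PPDK2 differed between tissues by 0.94 to 1.14 over single libraries left out, where an exact permutation p of 0.0286 is the smallest that 35 arrangements allow and so carries no further weight, and between ages by -0.17 to 0.29. The tissue difference of the pdk1 T01 share lay at -1.52 to 6.54 points. In most cases the cause of a change was not tested. Library size alone and log2 TPM move the median of all genes by construction.

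Called genes at 18 DAP numbered 395, and 2221 with the DESeq2 Wald test, 1332 with library size only, 6201 and 9576 with limma on log2(TPM + 0.1) and log2(TPM + 1), 1215 with no filter and 47 to 1649 over single libraries left out. At 22 DAP they numbered 322, and in the same order 2360, 1623, 8644, 10620, 1266 and 179 to 4938. Pooled they numbered 1694, and in the same order 4493, 6999, 13202, 14600, 3002 and 679 to 6884. Of the pooled calls TMM put 1134 higher and 560 lower in aleurone, and library size only put 6858 higher and 141 lower. Between ages in aleurone the DESeq2 Wald test called 3 genes, limma 26 and 25 and no filter 6. In starchy endosperm the DESeq2 Wald test called 32 and no filter 62, with 0 to 3166 over single libraries left out. For the change of the tissue difference these were 7, 17, and 0 to 2260. The counts of 4938, 6884, 3166 and 2260 all came without starchy endosperm at 22 DAP replicate 1.

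Same-numbered libraries deviated together across genes (Pearson r of 0.187 to 0.407 over 19058 genes in 6 pairs of groups), but there are only 2 numbers and the labels do not say what a number shares. With the replicate number as a block, lkrsdh1 passed at 18 DAP (1.93, edgeR adjusted p = 0.0138), pdk1 passed with the ages pooled (1.00, edgeR adjusted p = 0.0169), no other call of the 3 genes changed, and the calls numbered 808 at 18 DAP and 580 at 22 DAP. The ratio of pdk1 to PPDK2 kept its difference of 1.02, but permutations within replicate numbers cannot give a p below 0.0556, which was the value. For the PPDK2 T03 share such permutations gave p = 0.111.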
